A study of Mus musculus with 13 samples.

Results

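The genes described here are those of the G1 phase of the cell cycle: the D cyclins Ccnd1, Ccnd2 and Ccnd3, their kinases Cdk4 and Cdk6, the E cyclins Ccne1 and Ccne2, and the pocket proteins Rb1, Rbl1 and Rbl2. They were chosen by name, with earlier results of these data known, and are 10 of the 24328 genes in the files. All 10 were present, and all passed the filter on low counts in the time course.

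D cyclins are made in response to growth signals and bind CDK4 or CDK6. These kinases, and later CDK2 with an E cyclin, phosphorylate the retinoblastoma family of pocket proteins (RB1, p107 from Rbl1 and p130 from Rbl2), which then release the E2F factors that drive the genes of DNA replication. Ccne1, Ccne2 and Rbl1 are themselves textbook E2F targets, p130 with E2F4 and the MuvB proteins represses cell cycle genes in resting cells, and CDK6 is known to be needed for the growth of MLL-rearranged leukemia cells.

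The study asked how leukemia stem cells driven by an MLL fusion differ from normal progenitors, and what an inhibitor of p300 and CBP does to them. RNA from mouse bone marrow cells was sequenced as 13 libraries. Granulocyte-monocyte progenitors from wild-type marrow (GMP), leukemia stem cells (LSC) of a tumor driven by MLL-AF10, and the mature leukemia cells (mAML) each gave 1 library. A-485, which blocks the acetyl transfer by p300 and CBP, was given to LSC, with a pair of libraries at 0 h (untreated), 8 h, 24 h, 48 h and 72 h. MLL-AF10 leukemia cells were cultured with serum and WEHI-conditioned medium, and every cell of the time course, the 0 h cells included, carries the fusion and was labelled LSC. There was no vehicle control at the later times. The dose, the strain and age of the mice, how the fusion was introduced, how the cells were sorted, whether a line was 1 clone, and whether the single LSC and mAML libraries came from culture or directly from marrow are not stated in the labels. Nothing says that both libraries of a time had cultures of their own, so p-values measure the spread between these libraries, which may be technical.

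The 3 single libraries held 24532513 (GMP), 40468524 (LSC) and 47257637 (mAML) estimated counts, and the time course 6467762 to 9763278. The 9 progenitor markers, with Mpo and Kit among them, were all at 1 TPM (a transcript level scaled for gene length and library size) or more in GMP, LSC and both 0 h libraries, with sums of 40258, 30544, 10822 and 10287 TPM. They summed to 2558 TPM in mAML and to 346 to 1597 TPM in the treated libraries, where Kit was at 2.5 TPM or less and Mpo at 0.38 TPM or less from 24 h on. All 12 T and NK cell markers were at 1 TPM or more in mAML, against 2 in GMP and 3 in LSC. Their defining gene Cd3e was at 6.32 TPM in mAML and at 0 in GMP, LSC and 9 of the 10 time-course libraries. Erythroid markers summed to 3386 TPM in mAML, 254 in GMP and 7.89 in LSC. B cell markers summed to 47.4, 49.3 and 66.3 TPM in GMP, LSC and mAML and to 3.81 TPM or less in the time course. Of 9 stromal and endothelial markers, Pecam1 alone reached 1 TPM in 9 time-course libraries, and 5 did in mAML. Summed neutrophil markers were at 1812 to 6942 TPM at 0 h and 25.3 to 26.5 TPM at 72 h, monocyte markers at 5762 to 8056 and 379.7 to 457 TPM, and mast cell, basophil and eosinophil markers at 461 to 647 and 49.3 to 75.1 TPM. Not all genes followed these sums. At 72 h, 6 of 7 neutrophil, 3 of 8 monocyte and 5 of 6 mast cell, basophil and eosinophil markers tested were lower (edgeR's quasi-likelihood test, adjusted p under 0.05). The share over all genes was 29.4%. In these bulk samples fewer cells of a type and less RNA per cell cannot be told apart.

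Other features of the libraries moved with time under A-485. The mean transcript length behind a read was 3128 and 3115 nucleotides at 0 h and 3670 to 3793 at 48 and 72 h. Malat1, a long RNA kept in the nucleus, was at 53.3 and 54.4 TPM at 0 h, 141 and 111 at 8 h, and 745 and 819 at 72 h. The part of these features, and of the fall of the progenitor markers, in the changes below was not tested. The scaling factors of the main test were 0.83 in both 0 h libraries and 1.03 to 1.07 in the treated ones, so changes on that scale lie lower than changes by library size alone. Changes in TPM lay higher still. At 72 h the median log2 change of all genes was 0.35 by library size and 0.62 with log2(TPM + 1). In all, 3 libraries stood apart from the other library of their time: 8 h replicate 2, 24 h replicate 2 and 72 h replicate 1. Wnt2, picked after its values were seen, was at 56.4, 59.3 and 21.2 TPM in them and at 0.65, 0.47 and 1.04 in their partners. Results that rest on these libraries are given with and without them.

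Promoter sequence just upstream of the start site was at hand for 6 of the 10 genes (7 windows, RefSeq, build GRCm38.p6). Cdk4, Rbl1 and Ccne1 are shown because in the main test they were lower than at 0 h from 24 h on. They carry, in that order, E-boxes, an E2F word and neither. Rbl1 rose at 8 h first, and its later falls against 0 h were not called in TPM. Each window shown is the 250 bases before the annotated start, 5′ to 3′ on the gene's strand, with matches in capitals. Cdk4 is chr10:127063285-127063534 on the plus strand, Rbl1 chr2:157204535-157204784 on the minus strand and Ccne1 chr7:38107491-38107740 on the minus strand.
Cdk4: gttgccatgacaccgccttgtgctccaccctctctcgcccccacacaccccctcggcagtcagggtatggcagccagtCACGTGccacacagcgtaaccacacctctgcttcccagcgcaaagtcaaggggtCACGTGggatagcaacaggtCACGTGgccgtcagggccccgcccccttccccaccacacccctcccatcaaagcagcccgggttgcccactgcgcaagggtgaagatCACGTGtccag
Rbl1: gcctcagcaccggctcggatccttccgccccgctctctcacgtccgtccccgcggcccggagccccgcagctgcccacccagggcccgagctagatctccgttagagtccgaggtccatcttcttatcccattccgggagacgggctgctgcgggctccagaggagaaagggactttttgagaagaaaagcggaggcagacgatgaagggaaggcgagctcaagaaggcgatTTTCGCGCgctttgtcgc
Ccne1: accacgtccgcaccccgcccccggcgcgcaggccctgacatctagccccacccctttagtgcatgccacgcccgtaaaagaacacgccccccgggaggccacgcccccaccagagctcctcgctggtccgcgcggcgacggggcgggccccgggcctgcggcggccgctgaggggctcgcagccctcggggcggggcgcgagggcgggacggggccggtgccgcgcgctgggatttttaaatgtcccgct

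The Cdk4 window held 4 copies of CACGTG, the E-box bound by MYC and related factors, of which the nearest ended 6 bases before the start. CACGTG, which reads the same on both strands, was in 6.02% of 32851 such windows. The Cdk6 window (chr5:3343643-3343892, plus strand) held 1 copy. Rbl1 held TTTCGCGC, 18 to 11 bases before the start. It is 1 of 4 E2F words searched on both strands (TTTCCCGC, TTTCGCGC, TTTGCCGC, TTTGGCGC), of which at least 1 was in 1.86% of windows. The FOXO word GTAAACA, in 3.17% of windows, was found on the reverse strand in 1 of the 2 Ccnd3 windows. None of these words was in the Ccne1 window or the Rbl2 window (chr8:91069807-91070056, plus strand). No word overlapped another.

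Within the time course, Cdk4 and Ccnd3 had the highest levels of the 10 genes and Ccnd1 and the E cyclins the lowest. At 0 h the order by TPM was Cdk4 (403 ± 2.74, SD, n = 2), Ccnd3 (240.0 ± 8.44), Ccnd2 (51.9 ± 0.445), Cdk6 (43.9 ± 15.5), Rbl2 (35.8 ± 1.42), Rbl1 (25.3 ± 3.27), Rb1 (21.1 ± 1.15), Ccne2 (13.8 ± 5.37), Ccne1 (5.69 ± 1.55) and Ccnd1 (0.535 ± 0.0778). The libraries of Ccnd2 and Cdk6, of Cdk6 and Rbl2 overlapped, and those of the other neighbours did not. At 72 h it was Ccnd3 (299 ± 6.07), Cdk4 (163 ± 0.403), Rbl2 (106 ± 15.9), Ccnd2 (79.5 ± 41.6), Rb1 (53.1 ± 6.79), Cdk6 (34.0 ± 14.3), Rbl1 (23.4 ± 0.686), Ccne2 (2.99 ± 0.601), Ccnd1 (1.06 ± 0.474) and Ccne1 (0.59 ± 0.0566). Here the libraries of Rbl2 and Ccnd2 and of Ccnd2 and Rb1 overlapped, and those of the other neighbours did not. Cdk4 led at 0 and 8 h, and Ccnd3 led at 24, 48 and 72 h in every library.

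**Figure D1:**
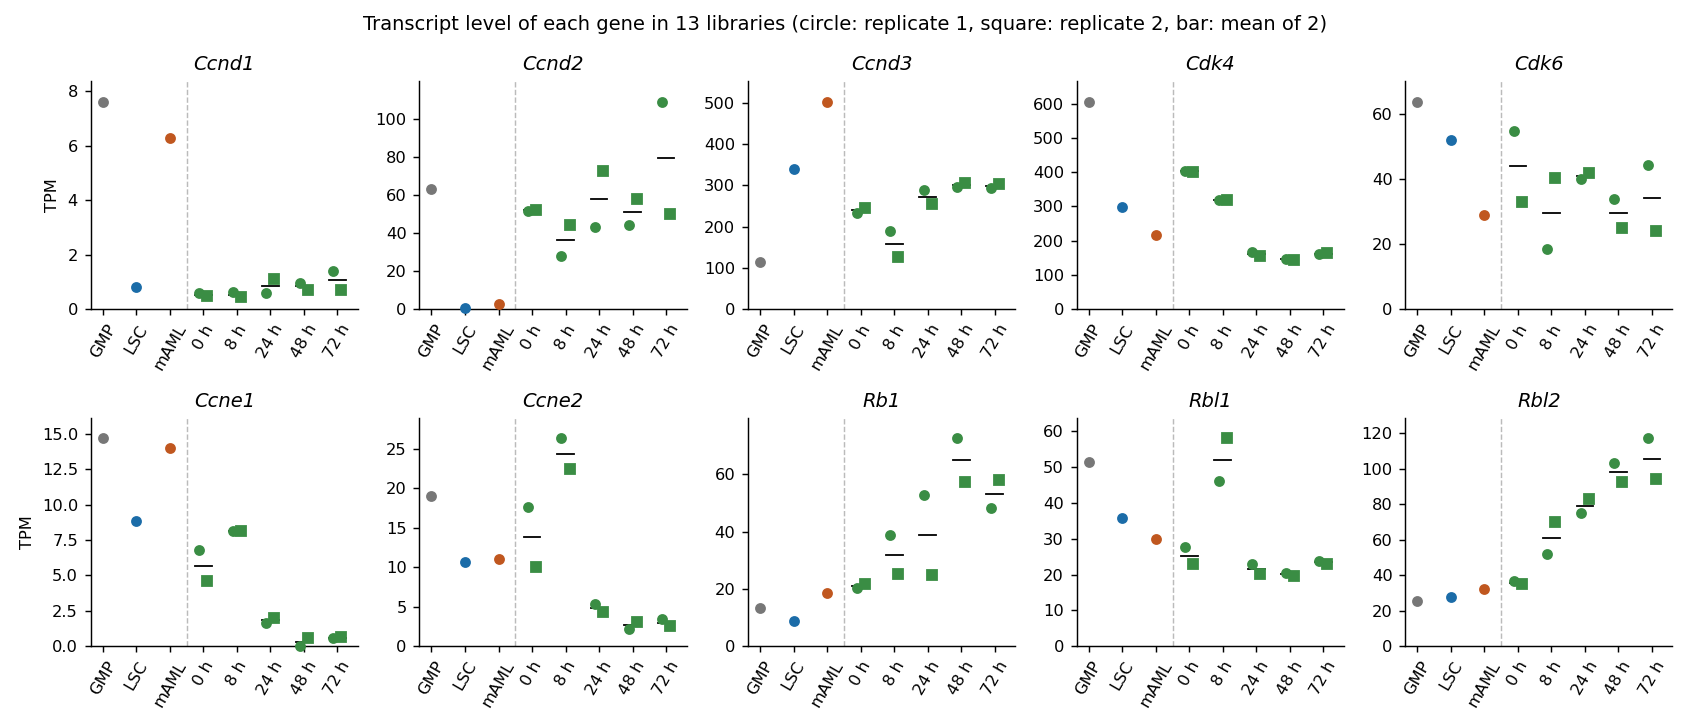
Each panel plots 1 gene, with its level in TPM on a linear axis from 0 and the 8 groups along the horizontal axis; left of the dashed line are the single GMP, LSC and mAML libraries, and right of it the 2 libraries (circle and square) of each time of A-485, with a bar at their mean. Cdk4 drops from about 403 TPM at 0 h to 163 TPM at 72 h with its replicates almost on top of each other, while those of Ccnd2, Cdk6 and Rb1 lie far apart at several times.

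Across all 4 treated times tested together, 6 of the 10 genes changed against 0 h (edgeR's quasi-likelihood test, adjusted p under 0.05): Cdk4, Ccne1, Ccne2, Rbl1, Rbl2 and Ccnd3. This compares with 59.8% of the 11119 genes tested, so the share is near that of all genes. At 8 h, 1 rose and 2 fell, beside 38.9% called over all genes (17.9% higher, 21.0% lower). At 24 h, 1 rose and 4 fell (50.3% called, 23.2% higher and 27.1% lower). At 48 h, 2 rose and 5 fell (55.6%, 25.2% higher and 30.5% lower). At 72 h, 1 rose and 5 fell (55.3%, 25.9% higher and 29.4% lower). Between 8 and 72 h, a comparison that leaves out the 0 h libraries, 2 rose and 4 fell (32.2%, 15.1% higher and 17.2% lower). The libraries of the times compared did not overlap for 7, 8, 9 and 8 of the 10 genes at the 4 times and for 6 between 8 and 72 h, where they did not for 73.2%, 76.8%, 83.2%, 80.9% and 65.9% of all genes. The median log2 change of the 10 genes against 0 h was -0.18, -0.49, -0.89 and -0.61 at the 4 times, where that of all genes lay between -0.04 and 0.01. Without the 3 libraries that stood apart, more of the 10 genes were called at each of the 4 times, and so were more of all genes. That fit keeps 1 library at 8, 24 and 72 h. The 4 comparisons with 0 h share the same 2 control libraries.

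**Figure D2:**
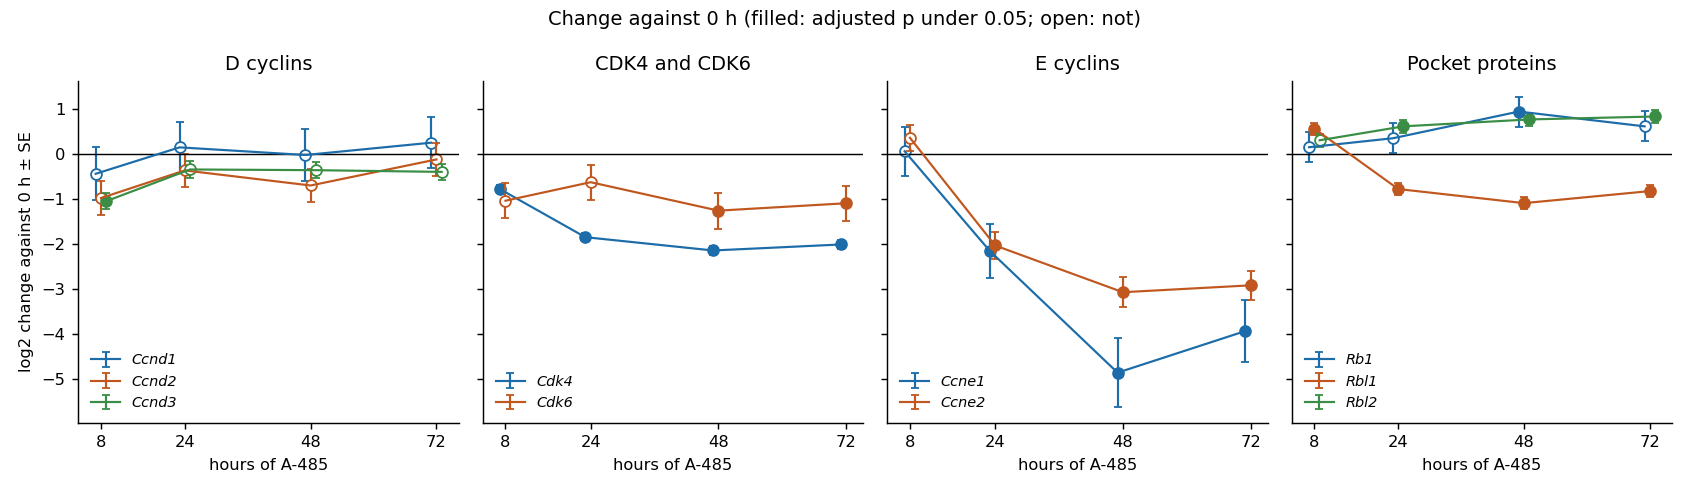
Each panel plots a subfamily, with hours of A-485 on the horizontal axis and the log2 change against 0 h on the vertical axis; bars are the standard error, and filled points have an adjusted p under 0.05. Ccne1 and Ccne2 lie near 0 at 8 h and between -2.91 and -4.86 at 48 and 72 h, and Rbl1 and Rbl2 part after 8 h.

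Among the D cyclins, Ccnd3 was the main one in every library and fell at 8 h. Ccnd3 was at 234 and 246 TPM at 0 h, 189.8 and 126 at 8 h, 289 and 255 at 24 h, 295 and 305 at 48 h, and 295 and 303 at 72 h. Both 8 h libraries lay below both of every other time. On the test's scale of counts relative to library size (CPM, scaled by the trimmed mean of M values), Ccnd3 fell by 1.04 ± 0.18 (log2, SE) at 8 h (adjusted p = 0.00274) and was 0.65 ± 0.18 higher at 72 h than at 8 h (adjusted p = 0.0247). Dropping 8 h replicate 2 (0.36), 72 h replicate 1 (0.70) or 72 h replicate 2 (0.60) ended this second call. At 24, 48 and 72 h it did not pass against 0 h, with log2 changes of -0.34, -0.35 and -0.39, whose sign turned on the TPM scale (0.18, 0.32 and 0.32, none called). Without the 3 libraries that stood apart, the 48 and 72 h changes of Ccnd3 were called as falls (-0.35 and -0.34, adjusted p = 0.00597 and 0.0248).

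Ccnd2, the other D cyclin with a sizeable level, differed between the libraries of each treated time. Ccnd2 was at 51.6 and 52.3 TPM at 0 h, 28.1 and 44.4 at 8 h, 43.4 and 72.5 at 24 h, 44.1 and 58.2 at 48 h, and 109 and 50.1 at 72 h. In TPM the 8 h libraries were both below 0 h, and from 24 h on the values lay on both sides of it. On the CPM scale the 0 h libraries (254 and 258) lay above all treated ones except 72 h replicate 1 (320). No comparison of Ccnd2 with 0 h passed, with log2 changes of -0.97 ± 0.37 (adjusted p = 0.0668), -0.36 ± 0.37, -0.69 ± 0.37 and -0.12 ± 0.37. Without the 3 libraries that stood apart, Ccnd2 was called lower at every time, at -1.31, -0.80, -0.69 and -0.74 (adjusted p = 0.000271, 0.00266, 0.00101 and 0.00342). Leaving them out also lowers the spread that the test sees and keeps 1 library at 8, 24 and 72 h, whose spread is then taken to be that of the other times.

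Ccnd1, which leads in many solid tumors, had only 9 to 21 counts in each time-course library (0.44 to 1.40 TPM). Its log2 changes lay between -0.43 and 0.26 with SE of 0.57 to 0.59, and none passed. With so few counts, a change of Ccnd1 of the size of these SE was not detectable. Ccnd3 made up 81.8% and 82.4% of the summed D cyclin TPM at 0 h and 72.8% to 86.9% in the treated libraries. Ccnd2 made up nearly all of the rest, from 12.9% to 26.9%.

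**Figure D3:**
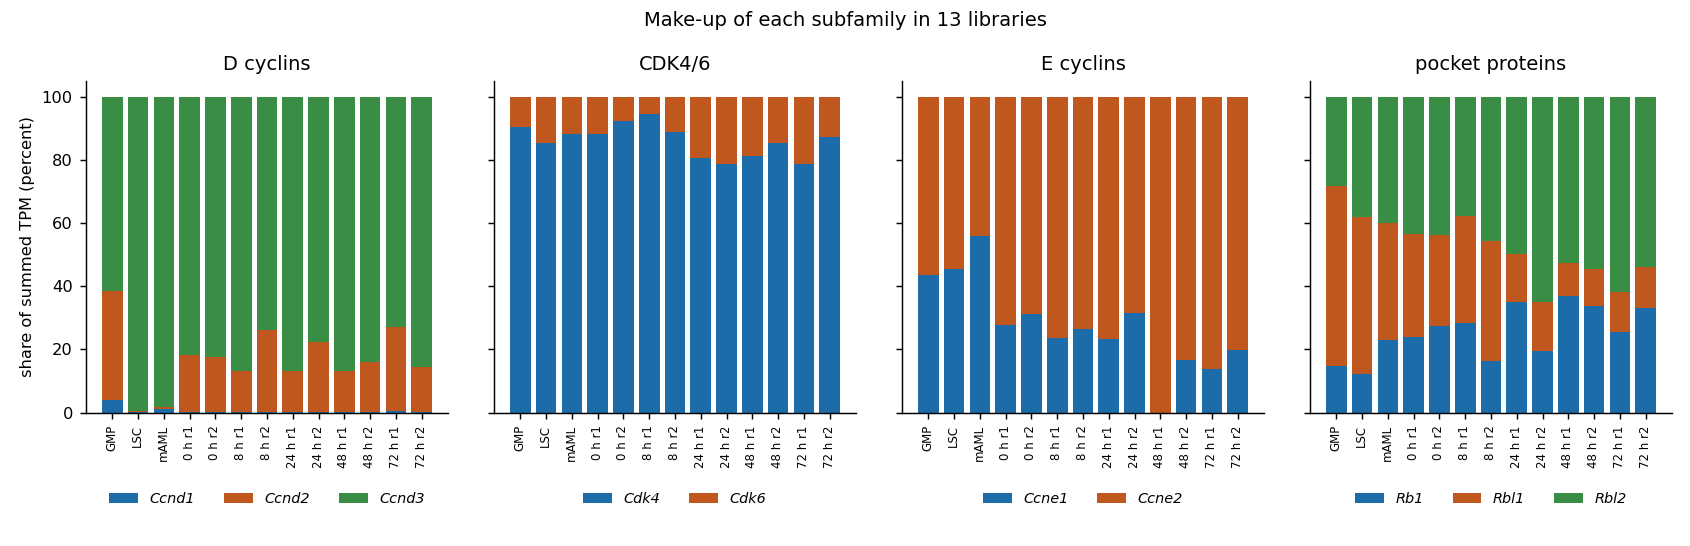
Stacked bars give each gene's share (percent, from 0 to 100) of the summed TPM of its subfamily in each of the 13 libraries, r1 and r2 being replicates 1 and 2. Ccnd3 takes 61.6% of the D cyclin bar in GMP and 99.5% in LSC, and Rbl1 takes 33.7% and 37.9% of the pocket protein bar at 8 h and 12.6% and 13.1% at 72 h.

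Cdk4 fell at every time and had the smallest errors of the 10 genes. Cdk4 was at 405 and 401 TPM at 0 h, 319.2 and 319.9 at 8 h, 166 and 154 at 24 h, 148 and 145 at 48 h, and 163 and 163 at 72 h. The pairs of libraries from 0 to 24 h did not overlap, and after 24 h the level stayed within 145 to 163 TPM. Cdk4 fell at each of the 4 times, with log2 changes of -0.78 ± 0.09, -1.84 ± 0.09, -2.14 ± 0.09 and -2.01 ± 0.09 (adjusted p = 0.000329, 9.69e-06, 2.81e-06 and 3.73e-06). It fell by a further 1.23 ± 0.09 from 8 to 72 h (adjusted p = 7.42e-05).

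Cdk6, whose product shares most substrates with CDK4, had lower and less even values. Cdk6 was at 54.8 and 33.0 TPM at 0 h, 18.5 and 40.4 at 8 h, 39.9 and 41.9 at 24 h, 33.8 and 25.1 at 48 h, and 44.1 and 23.9 at 72 h. In TPM every treated time had at least 1 library within the range of the 0 h pair. On the CPM scale the 0 h libraries (108 and 65.2) lay above all treated ones (27.3 to 58.4), and Cdk6 fell by 1.25 ± 0.40 at 48 h (adjusted p = 0.0253) and by 1.09 ± 0.39 at 72 h (adjusted p = 0.0423). Both calls are fragile: they held under 6 and 5 of 12 other settings, dropping 0 h replicate 1 left -0.78 and -0.64 (adjusted p = 0.201 and 0.289), and in TPM (log2 of TPM + 1) the changes were -0.53 and -0.38 (adjusted p = 0.272 and 0.433). The 8 h change was -1.03 ± 0.39 (adjusted p = 0.0657) and -1.67 without the libraries that stood apart (adjusted p = 0.00205). Cdk6 made up 11.9% and 7.60% of the summed Cdk4 and Cdk6 TPM at 0 h, 19.3% and 21.4% at 24 h, and 21.3% and 12.8% at 72 h.

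The E cyclins, which pair with CDK2 at the start of S phase, did not pass at 8 h and later fell the furthest of the 10 genes. Ccne2 was at 17.6 and 10.1 TPM at 0 h, 26.3 and 22.4 at 8 h, 5.39 and 4.35 at 24 h, 2.21 and 3.06 at 48 h, and 3.41 and 2.56 at 72 h. In TPM both 8 h libraries of Ccne2 lay above both 0 h libraries, and all libraries from 24 h on lay below those of 0 h. On the CPM scale the 8 h libraries (48.6 and 39.8) overlapped those of 0 h (43.6 and 24.9). The 8 h change of 0.37 ± 0.28 did not pass (adjusted p = 0.336), though it did in TPM (0.82, adjusted p = 0.0355). Ccne2 then fell, with log2 changes of -2.03 ± 0.31, -3.07 ± 0.33 and -2.91 ± 0.32 against 0 h (adjusted p = 0.000928, 0.000116 and 0.000142).

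Ccne1 had few counts: 83 and 50 at 0 h, 80 and 79 at 8 h, 16 and 18 at 24 h, 0 and 4 at 48 h, and 4 and 5 at 72 h. The first 4 of these libraries all lay above the other 6. Its TPM was 6.78 and 4.59 at 0 h, 8.12 and 8.13 at 8 h, and 0 to 2.0 from 24 h on. Its 8 h change was 0.07 ± 0.55 (adjusted p = 0.935). Ccne1 then fell, with log2 changes of -2.15 ± 0.60 at 24 h (adjusted p = 0.0163), -4.86 ± 0.77 at 48 h (adjusted p = 0.000862) and -3.93 ± 0.69 at 72 h (adjusted p = 0.00155). With so few counts at 48 and 72 h the size of these folds depends on how low counts are handled, and dropping either 0 h replicate 1 (-1.81, adjusted p = 0.104) or replicate 1 of 24 h (-2.0, adjusted p = 0.0629) ended the 24 h call, as did log2(TPM + 0.1) (-1.57, adjusted p = 0.112). The summed E cyclin level was 24.4 and 14.6 TPM at 0 h, 34.4 and 30.5 at 8 h, and 3.96 and 3.19 at 72 h.

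Of the pocket protein genes, Rbl2 rose under A-485, and Rbl1 rose at 8 h and then fell. Rbl2, which codes for the p130 of resting cells, was at 36.9 and 34.8 TPM at 0 h, 51.9 and 70.0 at 8 h, 75.0 and 83.1 at 24 h, 103 and 92.6 at 48 h, and 117 and 94.5 at 72 h. All treated libraries lay above both 0 h libraries. Rbl2 rose by 0.62 ± 0.15, 0.77 ± 0.15 and 0.84 ± 0.15 at 24, 48 and 72 h (adjusted p = 0.00823, 0.00229 and 0.00154). The 8 h change was 0.31 ± 0.15 (adjusted p = 0.124), and 0.62 by library size alone (adjusted p = 0.00718).

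Rbl1, which codes for the p107 of cycling cells, peaked at 8 h. Rbl1 was at 27.6 and 23.0 TPM at 0 h, 46.2 and 58.0 at 8 h, 22.9 and 20.0 at 24 h, 20.4 and 19.7 at 48 h, and 23.9 and 22.9 at 72 h. Both 8 h libraries were the highest of the 10, and the later ones lay under the lower 0 h library, except 72 h replicate 1, which lay between the 0 h values. On the CPM scale Rbl1 rose by 0.57 ± 0.13 at 8 h (adjusted p = 0.0104), then fell, with log2 changes of -0.77 ± 0.14, -1.09 ± 0.14 and -0.82 ± 0.14 against 0 h (adjusted p = 0.00196, 0.000259 and 0.00117). In TPM the later changes were -0.22, -0.32 and -0.10 and did not pass (adjusted p = 0.244, 0.105 and 0.579). The fall from 8 to 72 h, by 1.39 ± 0.14 (adjusted p = 0.000209), held on either scale. Dropping replicate 2 of 0 h (0.50, adjusted p = 0.0670) or of 8 h (0.42, adjusted p = 0.0744) ended the call of the 8 h rise.

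Rb1, the retinoblastoma gene itself, was at 20.3 and 21.9 TPM at 0 h, 38.9 and 25.1 at 8 h, 52.9 and 24.9 at 24 h, 72.6 and 57.5 at 48 h, and 48.3 and 57.9 at 72 h. All treated libraries of Rb1 were above 0 h in TPM, by little in 8 h replicate 2 and 24 h replicate 2. On the CPM scale 8 h replicate 2 (70.4) and 24 h replicate 2 (68.6) lay below both 0 h libraries (79.1 and 85.7). Rb1 rose on that scale at 48 h (0.95 ± 0.33, adjusted p = 0.0377). This call was lost whenever 1 of the 4 libraries compared was left out and when a trend with transcript length was removed (0.72, adjusted p = 0.0945). The changes of Rb1 at 8, 24 and 72 h were 0.16 ± 0.33, 0.36 ± 0.33 and 0.62 ± 0.33. Without the 3 libraries that stood apart, the log2 changes of Rb1 at the 4 times were 0.46, 0.79, 0.95 and 0.78. Rb1 was lower in each of these 3 libraries than in its partner, so leaving them out was bound to raise its values at 8, 24 and 72 h. That fit keeps 1 library at 8, 24 and 72 h. In the summed pocket protein TPM, Rbl1 went from 32.6% and 28.8% at 0 h to 12.6% and 13.1% at 72 h, and Rbl2 from 43.5% and 43.7% to 61.8% and 53.9%. The sum itself was 84.7 and 79.7 TPM at 0 h and 189.2 and 175 at 72 h.

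Between the 2 libraries of each treated time, the one with more Ccnd2 had less Rb1, a pair picked after its values were seen. In the libraries that stood apart, Ccnd2 was 1.53, 1.71 and 2.08 times its partner's CPM at 8, 24 and 72 h, and Rb1 was 0.622, 0.483 and 0.798 times. In the 48 h pair, which held no such library, replicate 2 had 1.34 times the Ccnd2 and 0.807 times the Rb1 of replicate 1. At 0 h both ratios were near 1 (1.02 and 1.08). Of the 10 genes, Ccnd2, Cdk6 and Rbl2 were higher in all 3 libraries that stood apart than in their partners, as were 24.0% of all genes tested. Ccnd3, Cdk4 and Rb1 were lower in all 3, as were 23.4%. Cdk4 was at 0.956, 0.938 and 0.947 times its partner.

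**Figure D4:**
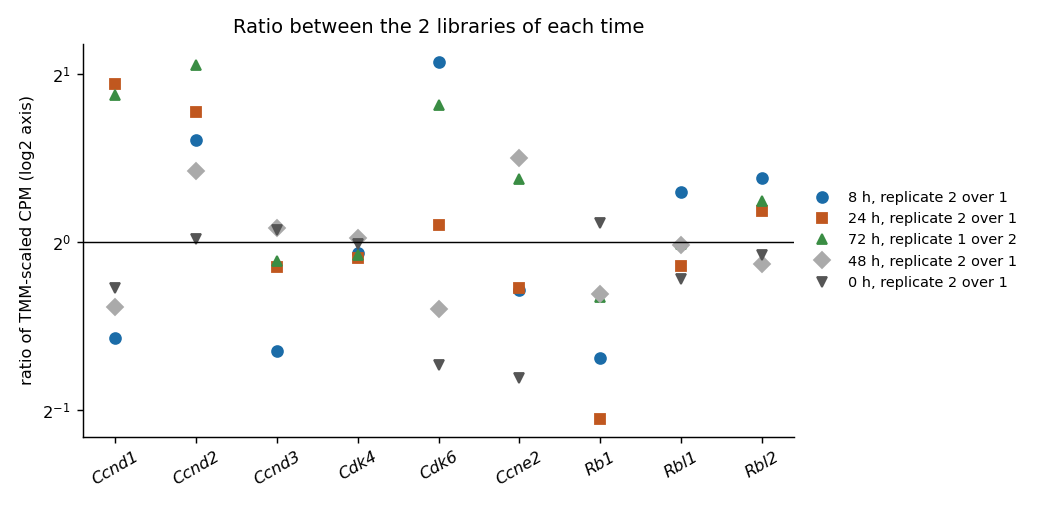
Points give the ratio of a gene's CPM between the 2 libraries of a time, on a log2 axis with 1 as equal; at 8, 24 and 72 h the library that stood apart is divided by its partner, and at 0 and 48 h replicate 2 by replicate 1. Ccne1 is left out because 1 of its libraries had 0 counts. Ccnd2 lies above 1 in all 4 treated pairs (1.34 to 2.08) and Rb1 below 1 in the same pairs (0.483 to 0.807), while Cdk4 stays within 0.938 to 1.02.

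Across the 10 time-course libraries, Ccne1 and Ccne2 followed each other most closely (Pearson r = 0.98 of log2 CPM + 1), and both followed Rbl1 (0.92 and 0.95) and Cdk4 (0.92 and 0.90). Rbl2 ran opposite to Cdk4 (-0.94) and Ccne1 (-0.87). The libraries share times, treatment and scaling, so these values only describe the shape. Among 9027 genes with at least 10 CPM on average, the patterns nearest to Cdk4 were those of Fxyd4, Tcp1 (a chaperonin subunit) and Dtymk (thymidylate kinase), at 0.997, 0.994 and 0.994. Nearest to Ccne2 were Tyms (thymidylate synthase), Rfc5 (a clamp loader subunit) and Hells (a chromatin remodeller), all at 0.99, and nearest to Ccne1 Chtf18, Ndufc2 and H2afv, also at 0.99. Nearest to Rbl1 were Cdc23 (0.99), Tubg1 (0.98) and Bub3 (0.98), and to Rb1 Chd8 (0.99), Zfand5 (0.97) and Naa30 (0.97). Akap13 (0.996) and Samd4b (0.99) were among those nearest to Rbl2. Nearest to Ccnd3 were Rgs14 (0.99), Pygl (0.98) and Plxnd1 (0.97), to Ccnd2 Dnajb6 (0.93), Prkar2b (0.91) and Bcl2l1 (0.90), and to Cdk6 Tbc1d22b (0.94), R3hdm1 (0.93) and Cd47 (0.93). For Ccnd1, at its low counts, they were Inafm2, Trmt2b and Ubl5 (0.90, 0.89 and 0.88).

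Myc and other regulators upstream of the D cyclins had fallen by 8 h. Of 15 growth-signal regulators, 12 passed the filter, and 6 of these fell and none rose at 8 h, beside 21.0% lower and 17.9% higher over all genes. Myc, whose product binds the E-box, was at 234 and 259.8 TPM at 0 h, 19.5 and 8.23 at 8 h, and 4.94 and 1.40 at 72 h, with log2 changes of -4.59 ± 0.68 at 8 h (adjusted p = 0.00124) and -7.02 ± 0.80 at 72 h (adjusted p = 0.000161). Myb, a progenitor transcription factor, fell at both times, with changes of -1.82 ± 0.21 and -1.40 ± 0.21. Jun did too, with changes of -2.13 ± 0.57 and -4.09 ± 0.64, though its 8 h call held under 7 of 12 other settings only. Runx1, a blood transcription factor, fell by 2.09 ± 0.25 at 8 h and was near its 0 h level at 24 h (0.01 ± 0.24).

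Of 7 CDK inhibitor genes, 5 passed the filter, and they did not move as 1 group. Cdkn1b, which codes for p27, the inhibitor of cyclin E with CDK2, was at 41.2 and 47.2 TPM at 0 h, 55.3 and 60.7 at 8 h, 158 and 173 at 48 h, and 173 and 203 at 72 h. It rose by 0.83 ± 0.17, 1.23 ± 0.17 and 1.38 ± 0.17 at 24, 48 and 72 h (adjusted p = 0.00386, 0.000395 and 0.000222), while its 8 h change was -0.06 ± 0.17. Cdkn1a, which codes for p21, rose at 48 h (0.59 ± 0.18, adjusted p = 0.0228, held under 10 of 12 other settings) and did not pass at 24 or 72 h. Cdkn2d, which codes for the CDK4 and CDK6 inhibitor p19, fell at 24 h (-0.995 ± 0.169), 48 h (-1.34 ± 0.17) and 72 h (-1.26 ± 0.17). Its relative Cdkn2c fell at 48 h (-1.68 ± 0.27) and 72 h (-1.13 ± 0.26), but in TPM the changes of Cdkn2c were -0.29 and 0.33, and neither was called (adjusted p = 0.390 and 0.317).

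Downstream, the 30 E2F targets of DNA replication and nucleotide synthesis kept closer to 0 h at 8 h and fell together later. At 8 h 9 of the 30 fell and 21 were not called, with a median log2 change of -0.31. Over all genes 38.9% were called at 8 h, 21.0% as lower. At 24, 48 and 72 h all 30 fell, beside 27.1%, 30.5% and 29.4% of all genes. Their medians were -2.39, -3.27 and -3.02, where the medians of all genes were -0.03, -0.04 and -0.02. Mcm7, a subunit of the replicative helicase, was at 211 and 203 TPM at 0 h, 139 and 143 at 8 h, and 31.2 and 33.4 at 72 h, a fall by 3.39 ± 0.18 (adjusted p = 7.14e-06). At 72 h the helicase genes Mcm3 (-3.58 ± 0.18) and Cdc45 (-4.46 ± 0.18) and the ribonucleotide reductase gene Rrm2 (-6.34 ± 0.33) fell as well. Ccna2, the S-phase cyclin, was at 85.3 and 87.1 TPM at 0 h, 169.6 and 209 at 8 h (0.68 ± 0.42, not called), and 0.92 and 1.01 at 72 h.

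**Figure D5:**
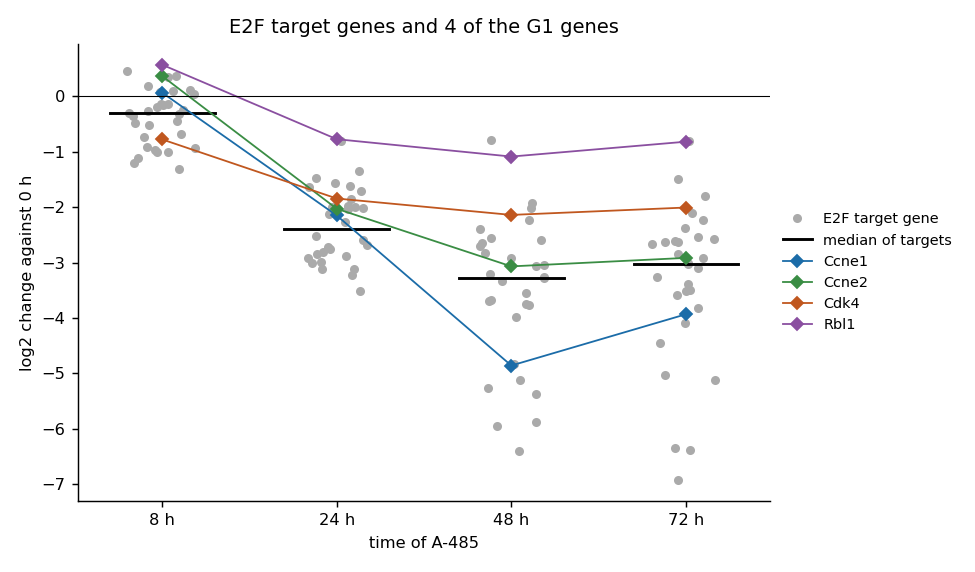
Grey points are the log2 changes against 0 h of 30 E2F target genes at each time of A-485, the black line is their median, and diamonds joined by lines are Ccne1, Ccne2, Cdk4 and Rbl1. The median goes from -0.31 at 8 h to -3.27 at 48 h; Ccne1 and Ccne2 lie above it at 8 h and within the cloud later, and Rbl1 stays at its upper edge.

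Of the 10 E2F and DP genes, 1 rose and 2 fell at 8 h, and 1 rose and 5 fell at 72 h, shares near the 38.9% and 55.3% called over all genes. E2f2, an activating member, was at 14.1 and 13.7 TPM at 0 h, 5.15 and 5.0 at 8 h, and 0.15 and 0.47 at 72 h, and fell by 1.96 ± 0.32 at 8 h (adjusted p = 0.00188). E2f1 fell less, with a change of -1.0 ± 0.17 at 72 h (adjusted p = 0.00138) that was not called in TPM (-0.26, adjusted p = 0.193), and E2f4, the partner of p130, was not called at any time (-0.24 to 0.15). The DP subunit Tfdp1 fell at every time, with changes from -0.87 ± 0.12 to -1.72 ± 0.12. E2f7, an atypical repressor, had 249 and 154 counts at 0 h, 362 and 328 at 8 h, and 0 in both libraries at 72 h, and E2f8 fell by 4.99 ± 0.39 at 72 h. Of 8 MuvB and partner genes, 2 rose and 1 fell at 8 h, and 5 fell at 24, 48 and 72 h each while 1, 2 and 1 rose, where 50.3%, 55.6% and 55.3% of all genes were called. Lin54, which is among the falls at 48 and 72 h, was called under only 2 and 1 of 12 other settings. Mybl2 (-6.31 ± 0.36) and Foxm1 (-3.50 ± 0.35), both activators of late cell cycle genes, fell the furthest of those named at 72 h.

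Of 11 partners of the G1 and S-phase kinases, 5, 8, 8 and 9 fell at the 4 times and none rose. Over all genes, 21.0%, 27.1%, 30.5% and 29.4% were lower, and 17.9% to 25.9% were higher. Cables1, which links cyclin-dependent kinases to other kinases, had already fallen by 2.77 ± 0.29 at 8 h and stood at -2.96 ± 0.29 at 72 h. The kinase-binding genes Cks1b (-4.87 ± 0.44) and Cks2 (-4.14 ± 0.53) fell at 72 h. Of 12 genes for cyclin turnover, 3 rose and 1 fell at 8 h, and 5 rose and 4 fell at 72 h. Of all genes, 38.9% and 55.3% were called in either direction at these times. Ambra1, an adaptor for the breakdown of D cyclins, rose by 0.55 ± 0.11 at 8 h and 1.06 ± 0.11 at 72 h (adjusted p = 0.00572 and 0.000107). Fbxo4 rose by 1.73 ± 0.21 and 1.79 ± 0.21. Fbxw7, an adaptor for the breakdown of cyclin E, rose by 1.21 ± 0.17 at 72 h, and Fbxo31 fell by 1.52 ± 0.18 at 8 h.

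The single libraries of GMP, LSC and mAML allow no test, and brackets give the 95% exact counting interval of a log2 ratio. LSC held almost no Ccnd2, at 0.80 TPM against 63.3 in GMP (log2 ratio -5.99 [-6.32, -5.80]). Ccnd1 was at 0.84 TPM in LSC and 7.62 in GMP (-2.85 [-3.28, -2.60]). Ccnd3 went the other way, at 340.1 against 114 TPM (1.82 [1.76, 1.87]), and so made up 99.5% of the D cyclin TPM in LSC against 61.6% in GMP. These were the 3 of the 10 genes at least 2-fold apart with 10 CPM or more in the higher library, 1 higher and 2 lower, beside 19.0% of 9018 genes (10.9% higher and 8.11% lower). Cdk4 was lower in LSC, at 299.99 against 605 TPM (-0.78 [-0.82, -0.75]), and Cdk6 nearly level at 51.9 against 63.6 TPM (-0.06 [-0.13, 0.02]). By log2 of TPM + 1 the ratio of Cdk4 was -1.01, and 4 of the 10 genes were at least 2-fold apart. On the CPM scale the E cyclins and pocket proteins lay between -0.59 and 0.35. The E2F targets had a median of -0.48, and 1 of 30 was at least 2-fold lower. Between the same libraries, summed neutrophil markers were at 22394 TPM in LSC against 1943 in GMP, and monocyte markers at 5426 against 5563. Mast cell, basophil and eosinophil markers were at 22.4 TPM in LSC against 1298. T and NK cell markers were at 161 against 1000.2 TPM, of which Nkg7 alone made up 153 and 996. Cd3e and Cd3g were at 0 in both libraries. The part of these markers in the values was not tested.

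In mAML against LSC, 3 of the 10 genes were at least 2-fold higher and none lower, beside 19.7% of 9135 genes (12.7% higher and 7.0% lower). Ccnd1 was at 6.30 TPM (log2 ratio 2.91 [2.65, 3.31]), Ccnd2 at 2.94 TPM (1.90 [1.66, 2.23]) and Rb1 at 18.6 against 8.88 TPM (1.13 [1.04, 1.24]). Ccnd3 was the highest of all 13 libraries in mAML, at 502 TPM, and still made up 98.2% of D cyclin TPM. Cdk6 was at 28.8 TPM (-0.77 [-0.85, -0.70]) and Cdk4 at 216 TPM. Summed neutrophil markers were at 92918 TPM in mAML against 22394 in LSC, and monocyte markers at 23242 against 5426. Markers of T and NK cells and of erythroid cells were higher in mAML too, as given above, and the part of these markers in the values was not tested. Against GMP, mAML had 1 of the 10 genes higher (Ccnd3, 2.45 [2.40, 2.5]) and 2 lower (Ccnd2, -4.10 [-4.24, -3.99], and Cdk4, -1.18 [-1.22, -1.14]) by at least 2-fold, beside 31.7% of 9300 genes (19.2% higher and 12.5% lower).

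Several CDK inhibitor genes were higher in the leukemia libraries than in GMP. Of 7 measured, 3 were at least 2-fold higher in LSC than in GMP and none lower, and 4 were in mAML, with medians of 2.40 and 2.5. Over all genes considered, 10.9% were higher in LSC and 19.2% in mAML. Cdkn1c, among the 3 in LSC, was at 34.6 TPM there, 0.32 in GMP and 1.33 in mAML. Cdkn2c, an inhibitor of CDK4 and CDK6, was at 228 TPM in LSC and 185 in mAML against 26.3 in GMP, and Cdkn2d at 109 and 137 against 23.9. Cdkn1a was at 23.5 TPM in mAML, 3.71 in LSC and 6.99 in GMP. The untreated 0 h libraries, also labelled LSC, differed from the single LSC library here. Their Cdkn1a was at 199 and 226 TPM, Cdkn2c at 94.5 and 123 TPM, and Cdkn2d at 52.1 and 48.4 TPM.

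The LSC library and the 0 h libraries bear the same cell label yet differed in Ccnd2, which was at 0.80 TPM in the single LSC library and at 51.6 and 52.3 TPM in the 0 h libraries, a ratio of 64.9. It was the only 1 of the 10 genes at least 4-fold apart, beside 5.49% of 8032 genes higher and 3.61% lower. Rb1 was 2.37 times as high at 0 h as in the single LSC library. Libraries of these experiments differ in depth and were not made as replicates, so no test was made, and whether both came from culture is not stated. The D cyclin make-up of untreated LSC differed between these libraries: 0.23% Ccnd2 in the single library and 18.03% and 17.49% at 0 h.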

How the data were processed

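RNA was measured in the 13 libraries described above. Per the submitters' processing notes, the tools were STAR and RSEM and the build was mm9, with no versions or settings stated there. The deposited files hold, per the file headers, RSEM's expected counts and its TPM for each gene. The authors' TPM are relative to gene length and to the library's total. The effective length, deposited beside them, was used in the setting that removed a trend with transcript length and to recompute the TPM shares. It was not used in the main test.

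The expected counts were rounded. The 10 time-course libraries were fitted together in edgeR 4.0.16 (R 4.3.3) with TMM scaling, filterByExpr (11119 genes tested), time as a factor and the quasi-likelihood test. The Benjamini-Hochberg adjustment ran over all genes tested, and a gene was called at an adjusted p under 0.05. Standard errors are approximate, from the log2 change and the square root of its F value. The common biological coefficient of variation was 0.186, with 5 residual degrees of freedom. The script was tested on simulated data. For single libraries, log2 ratios of TMM-scaled CPM used a prior count of 5, and a gene was counted at 2-fold or more with 10 CPM or more in the higher library. Intervals cover counting error only.

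The other settings were DESeq2 1.42.0, limma 3.58.1 on log2(TPM + 1) and log2(TPM + 0.1), library size alone, no filter, a replicate block, removal of a trend with transcript length, leaving out each library, and leaving out 3 libraries together. The last was chosen after seeing the data. The 10 genes and the 16 gene lists were chosen with earlier results of these data known. All 10 genes are described. From each list of pathway genes, up to 4 with the smallest p over the whole course were eligible to be named, besides Cdkn1a, Cdkn1b, Cdkn2c, Cdkn2d, E2f1, E2f4 and Myc, and for each of the 10 genes the 3 genes of nearest pattern, not all of which are reported here. Cdkn1c was named in addition, after its values were seen. Promoter windows are RefSeq's, on GRCm38.p6, and no coordinates were converted from mm9. No 2 libraries held identical values.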

Additional observations from a re-analysis of the deposited data

Results flagged for a closer look

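For 6 of the 10 genes the log2 change at 72 h differed from that at 8 h, by the test of the difference itself (edgeR's quasi-likelihood test, 72 h against 8 h). Ccnd3 was higher at 72 h than at 8 h by 0.65 (adjusted p = 0.0247), and Rbl2 by 0.53 (adjusted p = 0.0240). Cdk4 was lower at 72 h, with a difference of -1.23 (adjusted p = 7.42e-05). The difference was -1.39 for Rbl1 (adjusted p = 0.000209), -3.28 for Ccne2 (adjusted p = 0.000223) and -3.998 for Ccne1 (adjusted p = 0.00300). For Rbl1, both 72 h libraries lay below both 8 h libraries, which were above 0 h. Removing a trend with transcript length left Rbl2 at 0.38 (adjusted p = 0.0649), and dropping 8 h replicate 1 or 72 h replicate 1 left it at 0.34 and 0.40, not called. All 6 differences were called without the 3 libraries that stood apart.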

How the results depend on the processing

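Of 27 calls on the 10 genes, 17 held in all settings tried, and 10 were lost in at least 1. Of 600 values compared, 503 kept their direction and side of the threshold, 35 lost a call, 30 gained one and 32 changed sign, none of them called in either setting. The cause of these shifts was not tested. At 8 h, 3 genes were called, and 5 with DESeq2, 5 without the filter and 5 with limma on log2(TPM + 1). More were called without the 3 libraries that stood apart, in a fit that keeps 1 library at 8 h. At 24 h, 5 were called and 3 with limma on log2(TPM + 0.1). Leaving out 1 library gave 2 to 4 genes at 8 h, 4 to 6 at 24 h, 5 to 6 at 48 h, 5 to 6 at 72 h, 4 to 6 for 72 h against 8 h and 6 to 7 over all times. Over all genes it gave 2716 to 3897 of 4324 calls at 8 h and 2061 to 2730 of 3583 for 72 h against 8 h. Genes at least 2-fold apart went from 1716 to 2905 (LSC against GMP) and from 1796 to 2881 (mAML against LSC) with a minimum of 1 CPM.

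By library size alone the median of all genes moved to 0.33, 0.28, 0.31 and 0.35 at the 4 times, and with log2(TPM + 1) to 0.41, 0.43, 0.56 and 0.62. At 8 h, 1987 genes were higher and 2337 lower in the main scaling, against 4078 and 1520 by library size. At 72 h the higher share of calls was 46.8%, against 67.4% by library size and 78.8% with log2(TPM + 1). Signs that turned by library size were Ccnd1 at 48 h (0.33) and Ccnd2 at 72 h (0.25). With log2(TPM + 1) and log2(TPM + 0.1) in turn, they were Ccnd2 at 24 h (0.11 and 0.11) and 72 h (0.50 and 0.51), Ccnd3 at 24 h (0.18 and 0.18), 48 h (0.32 and 0.32) and 72 h (0.32 and 0.32), Ccnd1 at 48 h (0.26 and 0.57), Lin54 at 48 h (0.11 and 0.12) and 72 h (0.17 and 0.18), Cdkn2c at 72 h (0.33 and 0.34), and Cdk6 for 72 h against 8 h (0.24 and 0.25). Ccnd1 at 48 h was 0.0054 with DESeq2 and 0.0068 without the filter. Leaving out 1 library in turn gave a range on both sides of 0 for Ccne1 at 8 h (-0.15 to 0.41), Rb1 at 8 h (-0.21 to 0.46) and 24 h (-0.26 to 0.79), Ccnd1 at 24 h (-0.38 to 0.55), 48 h (-0.22 to 0.19) and 72 h (-0.24 to 0.63), Ccnd2 at 72 h (-0.74 to 0.32), and Cdk6 for 72 h against 8 h (-0.52 to 0.58). Leaving out 3 turned Ccnd1 at 24 h (-0.38), 72 h (-0.24) and 72 h against 8 h (-0.060), and Cdk6 for 72 h against 8 h (0.11).

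The replicate block called 3, 5, 7 and 5 of the 10 genes at the 4 times, 6 for 72 h against 8 h and 6 over all times. Same-numbered libraries had correlations of -0.487 to 0.692, so the numbers were not taken to pair them. With the block, Cdk6 at 72 h was -1.09 (adjusted p = 0.0536). Depth limits Ccnd1 and Ccne1, which had under 100 counts in each time-course library.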
